A study of Mus musculus with 8 samples.

Results

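The annexins are a family of genes for calcium-dependent proteins that bind phospholipid membranes. Members were taken by gene symbol, as Anxa1, Anxa2, Anxa3, Anxa4, Anxa5, Anxa6, Anxa7, Anxa8, Anxa11 and Anxa13, which makes 10 genes of the 25239 in the deposited table. All 10 passed the filter on low counts and belong to the 15000 genes tested. The table lists 2 other annexin genes, Anxa9 and Anxa10, which were not counted as members. The family was chosen by measured values, the fold changes and adjusted p-values of the contrast between the groups, so its fold changes, adjusted p-values and counts of called members stand here as a description of the contrast and support nothing about the family.

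Of the 8 kidney libraries, 4 were labelled as myeloid-specific FoxO1 knockouts and 4 as WT, called knockout and control below. Per the labels' protocols, the knockout rests on Lyz2-CreERT2, a tamoxifen-dependent Cre recombinase under the control of the myeloid gene Lyz2, together with FoxO1flox/flox alleles, in mice aged 8 to 10 weeks. Tamoxifen was injected on 5 days (75 mg per kg of body weight). The same protocol text stands with all 8 samples, and it does not say whether the controls carried Cre or floxed alleles or received tamoxifen. All 8 kidneys had ischemia-reperfusion (I/R) injury, in which blood flow is stopped and then restored: the right kidney was removed and the left renal vessels were clamped for 35 minutes. No uninjured kidney was analysed here, and the time of collection is not given in the sources used here. RNA came from whole kidney digested with collagenase, so fewer cells of a type and less RNA per cell cannot be told apart.

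Annexins gather at membranes when calcium enters a cell, where they organise lipid rafts and vesicles, help close wounds in the plasma membrane and bind phosphatidylserine exposed on dying cells. Several work in pairs with small S100 proteins, as Anxa2 does with S100a10. In the kidney, annexins are expressed in tubule epithelium, vessels and immune cells. Anxa1 is known as a mediator that limits leukocyte entry, acting through formyl peptide receptors.

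Library totals ran from 29044405 to 34738914 counts in knockouts and from 32627652 to 35530421 counts in controls. Over all 15000 genes, edgeR's quasi-likelihood test called 6.45% higher and 6.28% lower in the knockout at a Benjamini-Hochberg adjusted p under 0.05. Foxo1, the targeted gene, stood at 39.3 to 42.9 CPM (counts scaled to the library's total) in knockouts and at 33.0 to 34.5 CPM in controls. It was thus not lower in the libraries labelled knockout, and a level in whole kidney does not check a deletion in myeloid cells. Lyz2 set 2 libraries apart, with 0.367 CPM in knockout 3 and 2.28 CPM in control 1, against 25.4 to 50.4 CPM in the other 6. No label says that the libraries of a group came from separate animals, so each p-value reflects only how far these libraries spread, which may be technical.

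Per kilobase of gene length, annexin RNA summed to less in every knockout library, and Anxa2 made up less of it. The summed level of the 10 members, in CPM per kilobase of deposited gene length (RPKM), was 642, 508, 488 and 536 in knockouts 1 to 4 and 1198, 1037, 1035 and 956 in controls 1 to 4. The groups did not overlap. Anxa2 alone took 27.9% ± 3.08 of this sum in knockouts and 49.0% ± 1.79 in controls (SD, n = 4 each). Without Anxa2 the sum was 390.4 ± 32.4 RPKM in knockouts and 539.6 ± 70.5 RPKM in controls. Anxa5, the phosphatidylserine-binding annexin, took 26.9% ± 1.16 of the sum in knockouts and 14.7% ± 2.14 in controls. The share of Anxa6 was 11.2% ± 0.856 in knockouts and 4.50% ± 0.485 in controls, and that of Anxa3 was 4.10% ± 0.672 in knockouts and 9.39% ± 3.49 in controls. A share moves whenever another member moves, so these percentages describe the make-up and not each gene's own change.

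**Figure D1:**
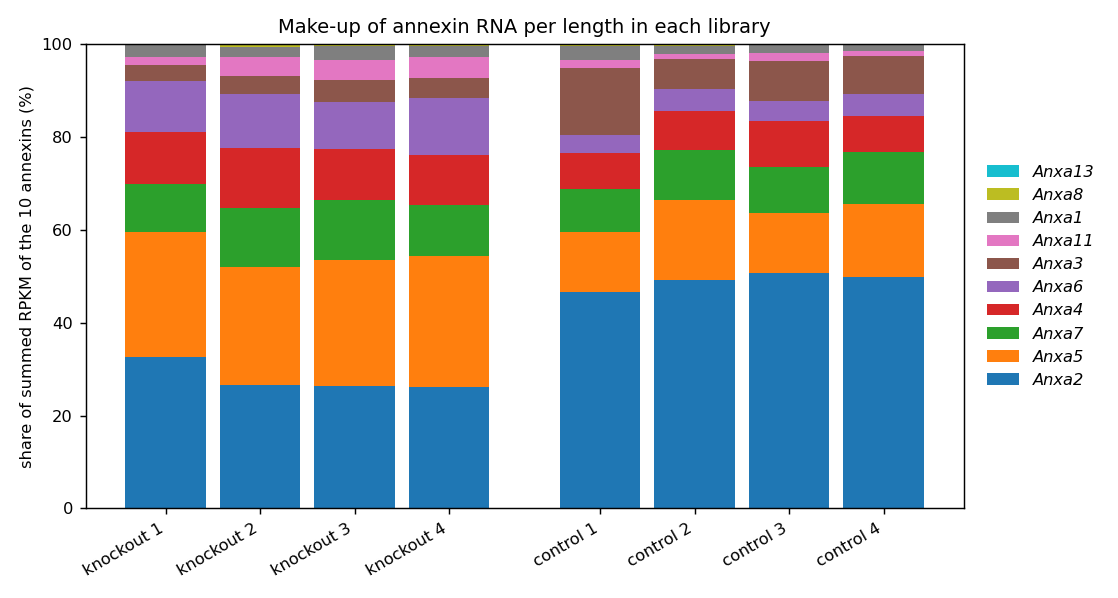
Stacked bars give each annexin's share, in percent, of the summed RPKM of the 10 members in each of the 8 libraries, with the 4 knockouts left of the 4 controls. Anxa2 averages 27.9% in knockouts and 49.0% in controls, while Anxa5 averages 26.9% in knockouts and 14.7% in controls.

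In knockouts the order of levels per length began with Anxa2 at 153 ± 37.4 RPKM and Anxa5 at 146 ± 20.1 RPKM, whose ranges over the 4 libraries overlapped. Anxa7, Anxa4 and Anxa6 followed at 63.6 ± 3.43, 61.9 ± 8.10 and 61.2 ± 9.31 RPKM and overlapped from neighbour to neighbour. Below them came Anxa3 at 22.0 ± 1.98, Anxa11 at 19.5 ± 5.13 and Anxa1 at 13.5 ± 2.75 RPKM, again with overlapping neighbours. Anxa8 and Anxa13 closed the order at 1.33 ± 0.843 and 0.877 ± 0.470 RPKM and overlapped. Of the 9 neighbouring pairs in this order, 3 did not overlap: Anxa5 above Anxa7, Anxa6 above Anxa3 and Anxa1 above Anxa8.

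In controls Anxa2 led at 517 ± 33.3 RPKM, and its lowest library, at 477 RPKM, lay above the highest of Anxa5, at 179 RPKM. Anxa5 averaged 154 ± 18.8 RPKM and Anxa7 108 ± 4.01 RPKM. Anxa3, at 102 ± 48.6 RPKM, stood in the fourth place in controls and the sixth in knockouts, and overlapped Anxa7 and Anxa4 (88.9 ± 12.4 RPKM). Anxa6 at 47.3 ± 2.61, Anxa1 at 21.2 ± 10.6, Anxa11 at 14.7 ± 5.13, Anxa8 at 2.58 ± 1.49 and Anxa13 at 1.08 RPKM (0.454 to 1.65 RPKM) completed the order. Here 5 of the 9 neighbouring pairs did not overlap.

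Of the 10 members, 4 were called lower in the knockout, where 6.28% of all genes tested were, and 0 were called higher, where 6.45% were. The 4 are Anxa2, Anxa3, Anxa7 and Anxa4, and they are also the members whose groups did not overlap in CPM with the knockout lower, as in 10.6% of all genes; 0 members stood apart with the knockout higher, as 11.1% of all genes did. Called and at least 2-fold lower were 2 members, Anxa2 and Anxa3, where 2.17% of all genes were, and 0 were called and at least 2-fold higher, where 3.26% were. At an unadjusted p under 0.05 in either direction stood 5 members, the same 4 and Anxa6, where 29.1% of all genes did. DESeq2 and limma voom likewise called 0 members higher; the unadjusted edgeR p of Anxa6 was 0.0146. The median log2 fold change, knockout over control, was -0.59 over the members and -0.01 over all genes tested.

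**Figure D2:**
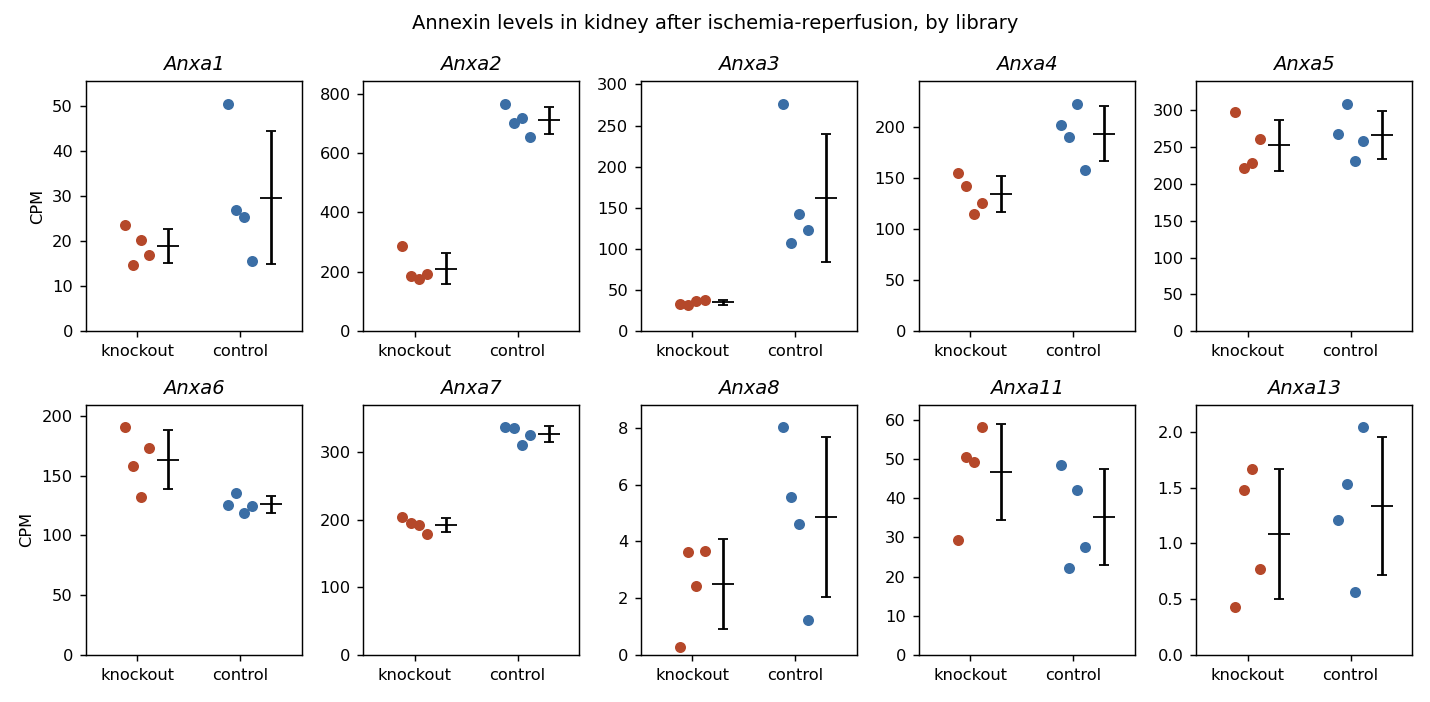
Each panel plots 1 annexin in CPM on a linear axis from 0, with 1 point per library, knockouts left of controls, and the mean with SD (n = 4 each) beside the points. The groups stand apart for Anxa2, Anxa3, Anxa4 and Anxa7, all lower in the knockout, and overlap for the other 6 members.

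Anxa2 encodes the annexin that pairs with S100a10 at the plasma membrane, where the complex binds plasminogen and its activator. It had 287, 186, 176 and 192 CPM in knockouts 1 to 4, against 766, 699.7, 719.6 and 656 CPM in controls 1 to 4. The lowest control stood far above the highest knockout, and knockout 1 lay above the other 3 knockouts. The means were 210.4 ± 51.4 CPM in knockouts and 710.3 ± 45.8 CPM in controls (SD, n = 4 each). Anxa2 fell by 1.76 on the log2 scale (SE 0.17, edgeR adjusted p = 5.80e-04), a 3.38-fold lower level. Over the 20 alternatives its log2 fold change ran from -1.94 to -1.64 and kept its call in each.

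S100a10, the S100 partner of Anxa2, moved in the same direction by less. It had 418, 327, 287 and 238 CPM in knockouts and 609, 808, 699.7 and 705 CPM in controls, a 2.23-fold lower level in the knockout (log2 fold change -1.15, SE 0.18, edgeR adjusted p = 0.00414). Per length, the ratio of Anxa2 to S100a10 RNA was 0.325, 0.270, 0.291 and 0.383 in knockouts and 0.595, 0.409, 0.487 and 0.440 in controls. The highest knockout ratio stayed under the lowest control ratio, with means of 0.317 ± 0.0496 in knockouts and 0.483 ± 0.0811 in controls. Ahnak, a giant scaffold protein that binds this complex, had 136 to 149 CPM in knockouts and 166 to 381 CPM in controls, a log2 difference of -0.74 (SE 0.23) short of the threshold (edgeR adjusted p = 0.0631). It passed in 5 of the 20 alternatives, DESeq2 among them (adjusted p = 0.0199).

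Among genes of plasmin generation at the cell surface, where Anxa2 acts, the urokinase receptor gene was lower in the knockout, while Plat and Plgrkt did not pass. Plaur, the receptor of urokinase, had 22.3 to 32.2 CPM in knockouts and 75.3 to 111 CPM in controls, 3.38-fold lower in the knockout (edgeR adjusted p = 3.68e-04). The tissue-type activator Plat (log2 fold change -0.20, adjusted p = 0.285) and the plasminogen receptor gene Plgrkt (-0.12, adjusted p = 0.678) did not pass. Plasminogen itself, Plg, had 8 to 34 counts in knockouts and 4 to 9 counts in controls and was not tested.

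The injured tubule markers moved with Anxa2 between the same groups: 9 of 12 were called lower and 0 higher. Of all genes tested, 6.28% were called lower and 6.45% higher. The injured tubule markers summed to 6067 to 6984 CPM in knockouts and 15246 to 29822 CPM in controls. Havcr1, the gene of the injury protein KIM-1, was 5.45-fold lower and the keratin gene Krt8 3.38-fold lower in the knockout, and no marker of the list stood at 0 in any library. Markers of uninjured nephron segments stood the other way, with 4 of 10 proximal tubule, 5 of 7 loop of Henle and 10 of 12 distal tubule and collecting duct markers called higher and 0 lower. The 4 proximal tubule calls became 2 without knockout 2, 3 or 4 or control 3. The sums of these 3 lists, in that order, were 6758 to 8745, 6563 to 7589 and 2665 to 3532 CPM in knockouts and 2553 to 6903, 2223 to 3835 and 684 to 1759 CPM in controls. Podocyte markers (4 of 6) and endothelial markers (2 of 8) were also called higher, with 0 lower in either list. The podocyte count became 1 without knockout 2 or 4 or control 3 or 4 and 2 without knockout 3. The endothelial count became 0 without knockout 3 or 4 and 1 without knockout 1 or 2 or control 1 or 3. The part of injured tubule cells in the level of Anxa2 or of any other annexin was not tested.

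RefSeq start sites of 7 members are in the promoter table at hand (build GRCm38.p6, while the counts were made on mm39); Anxa3, Anxa6 and Anxa13 are not among them. Motifs were sought on both strands in the 250 bases before each start: the FoxO core TGTTTAC, the longer element TTGTTTAC that contains it, the AP-1 motif TGAGTCA with its reverse complement TGACTCA, and the NF-kB motif in the letters capitalised in the Anxa4 promoter. Of the 9 member promoters 1 each held the FoxO core, the AP-1 motif and the NF-kB motif, and 0 held the longer element. Among all 32851 promoters there, 3.17% held the FoxO core, 1.07% the longer element, 4.46% the AP-1 motif and 0.14% the NF-kB motif. The 3 promoters with a motif are printed below from 5′ to 3′ on the strand of the gene, with the motif in capitals. They are Anxa2 (chr9:69453433-69453682, plus strand, AP-1 beginning 95 bases before the start), Anxa4 (chr6:86793585-86793834, minus strand, NF-kB, 55 bases before) and Anxa8 (chr14:34085729-34085978, plus strand, FoxO core, 196 bases before).
Anxa2: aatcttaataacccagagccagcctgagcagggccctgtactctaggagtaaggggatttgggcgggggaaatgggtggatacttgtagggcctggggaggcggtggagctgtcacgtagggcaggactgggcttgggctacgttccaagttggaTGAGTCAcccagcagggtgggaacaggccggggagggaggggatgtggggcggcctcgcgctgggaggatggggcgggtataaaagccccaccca
Anxa4: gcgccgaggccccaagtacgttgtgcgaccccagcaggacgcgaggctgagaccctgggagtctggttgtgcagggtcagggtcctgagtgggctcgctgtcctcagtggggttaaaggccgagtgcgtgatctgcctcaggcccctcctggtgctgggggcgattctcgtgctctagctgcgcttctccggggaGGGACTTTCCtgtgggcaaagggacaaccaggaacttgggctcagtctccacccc
Anxa8: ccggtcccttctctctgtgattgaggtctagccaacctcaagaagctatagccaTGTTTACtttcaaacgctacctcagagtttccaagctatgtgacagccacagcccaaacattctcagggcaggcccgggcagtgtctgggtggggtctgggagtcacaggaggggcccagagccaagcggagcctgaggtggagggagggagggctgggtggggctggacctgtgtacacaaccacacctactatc
A match of letters is not a binding site, and a promoter without a match says nothing of the factor. Anxa2 and Anxa4 were called lower and Anxa8 was not called.

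Anxa3, an annexin abundant in neutrophils and also expressed in epithelium, had the lowest fold change of the family. It had 33.4, 31.6, 37.3 and 38.3 CPM in knockouts 1 to 4 and 276, 107, 142 and 123 CPM in controls 1 to 4. The knockouts lay close together, the controls spread widely with control 1 on top, and the groups did not overlap. The means were 35.1 ± 3.17 CPM in knockouts and 162 ± 77.6 CPM in controls, a 4.61-fold lower level in the knockout (log2 fold change -2.21, SE 0.28, edgeR adjusted p = 0.00168). Without control 1 the log2 fold change was -1.82 (adjusted p = 1.44e-04).

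The genes closest to Anxa3 in their profile over the 8 libraries, by root mean square distance between log2 CPM centred on each gene's mean (12120 genes compared), were Vtcn1, Runx1 and Ankrd1. Vtcn1 encodes an immune checkpoint protein, Runx1 a transcription factor and Ankrd1 an ankyrin repeat protein of muscle and injured tissue. Their distances were 0.170, 0.178 and 0.211. Runx1, for example, had 4.46 to 5.42 CPM in knockouts and 11.7 to 37.5 CPM in controls, with control 1 again the highest.

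Anxa1, which encodes the anti-inflammatory annexin also known as lipocortin, overlapped between the groups. It had 23.5, 14.8, 20.3 and 16.9 CPM in knockouts and 50.4, 26.9, 25.4 and 15.6 CPM in controls, where control 1 stood high and control 4 lay among the knockouts. Its log2 fold change was -0.65 (SE 0.31, 95% interval -1.34 to 0.03, edgeR adjusted p = 0.194). Without control 1 the value was -0.27 (adjusted p = 0.488), and without control 4 it was -0.86 (adjusted p = 0.0669).

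S100a11, the S100 partner of Anxa1, was called lower: it had 387, 260, 226 and 248 CPM in knockouts and 540, 634, 561 and 544 CPM in controls (2.03-fold lower in the knockout, edgeR adjusted p = 0.00618). The ratio of Anxa1 to S100a11 RNA per length overlapped between the groups, at 0.0249 ± 0.00530 in knockouts and 0.0189 ± 0.0102 in controls. The formyl peptide receptors, through which Anxa1 signals, were near the limit of detection. Fpr2 had 30, 16, 8 and 5 counts in knockouts 1 to 4 and 130, 33, 21 and 10 counts in controls 1 to 4, and Fpr1 had 16, 8, 8 and 4 counts in knockouts and 73, 16, 10 and 10 counts in controls. Neither passed (log2 fold change -1.57, adjusted p = 0.235 for Fpr2 and -1.47, adjusted p = 0.222 for Fpr1). Without control 1 the values were -0.46 for Fpr2 and -0.38 for Fpr1, and without knockout 1 they were -2.32 and -2.02, none past the threshold. Fpr3 had 0 counts in all 8 libraries.

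Neutrophil markers were lower in the knockout, as Anxa3 was, and control 1 was their highest library too. Of 8 listed 7 were tested, of which 6 were called lower and 0 higher, where 6.28% and 6.45% of all genes tested were. The summed level of the neutrophil markers was 16.7, 9.24, 6.09 and 8.21 CPM in knockouts and 178, 51.3, 27.7 and 36.1 CPM in controls. The order of the other controls differed: this sum was lowest in control 3, and Anxa3 in control 2. The injured tubule sum was likewise lowest in control 2 (15246 CPM) among controls, and highest in control 3 (29822 CPM). The count of 6 became 1 without knockout 2, 3 without knockout 3 and 2 without knockout 4. Mmp8 had 0 counts in control 4, Retnlg in knockout 4 and Ly6g in controls 3 and 4, and no marker of this list stood at 0 in all libraries. Of 11 macrophage and monocyte markers 2, the integrin gene Itgam and the chemokine receptor gene Ccr2, were called lower and 0 higher. Leaving out 1 library changed these calls: 0 were lower without any 1 of the 4 knockouts and 1 without control 3, while 2 were called higher without control 1 and 1 without control 2. The 11 markers summed to 213 to 359 CPM in knockouts and 194 to 330 CPM in controls, with a median log2 fold change of 0.18. Csf1r, named after its values were seen, had 46.3 to 65.2 CPM in knockouts and 25.2 to 43.4 CPM in controls. Csf1r was thus higher without overlap, short of the threshold (edgeR adjusted p = 0.0546). Cd68 and Mrc1 of the same list, also named after their values were seen, averaged lower in knockouts, with overlapping groups. Their log2 fold changes were -0.58 (edgeR adjusted p = 0.0534) and -1.13 (edgeR adjusted p = 0.0947). The part of neutrophils or monocytes in the levels of Anxa1 and Anxa3 was not tested.

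**Figure D3:**
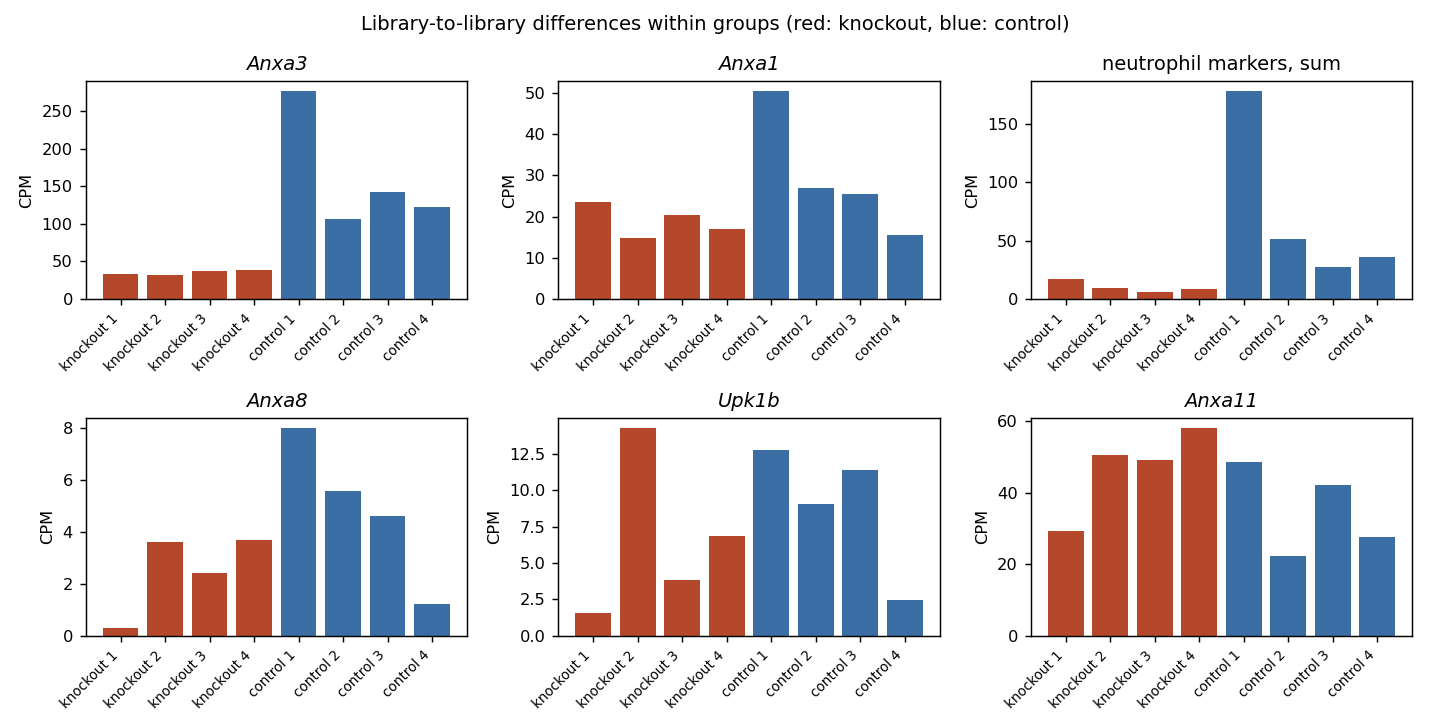
Bars on linear axes from 0 give CPM in each library, 4 knockouts (red) left of 4 controls (blue), for Anxa3, Anxa1, the sum of the neutrophil markers, Anxa8, the uroplakin gene Upk1b and Anxa11. Control 1 is the highest library for Anxa3, Anxa1 and the neutrophil sum, knockout 1 and control 4 are the lowest for Anxa8 and Upk1b, and knockout 1, control 2 and control 4 are the lowest for Anxa11.

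Anxa7, also called synexin, is an annexin of membrane fusion and secretion, and it separated the groups with the least spread of the family. It had 205, 195, 192 and 179 CPM in knockouts and 337, 336, 311 and 325 CPM in controls. The means of 193 ± 10.4 CPM in knockouts and 327 ± 12.2 CPM in controls correspond to a 1.70-fold lower level, or -0.76 on the log2 scale (edgeR adjusted p = 0.00217, SE 0.10). The SD of its log2 CPM was 0.078 in knockouts and 0.054 in controls, where the median gene had 0.236 in knockouts and 0.291 in controls. That median covers all 15000 genes tested, also those with few counts, and was not matched to the level of Anxa7. Its log2 fold change stayed between -0.79 and -0.73 over the 20 alternatives, past the threshold in each.

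Anxa4, an annexin of polarised epithelium found near the apical membrane, had 155, 142, 115 and 126 CPM in knockouts and 201, 189.6, 222 and 158 CPM in controls. The highest knockout, at 155 CPM, and the lowest control, at 158 CPM, almost touched. Anxa4 was 1.44-fold lower in the knockout (log2 fold change -0.52, SE 0.14, edgeR adjusted p = 0.0363). This call was lost without knockout 2, 3 or 4 and without control 1, 2 or 3, with edgeR adjusted p-values from 0.0551 to 0.105 in these smaller fits. The direction held in all of these, at -0.54 to -0.45.

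Anxa11, which links RNA granules to moving lysosomes, had the highest fold change of the family and did not pass. It had 29.3, 50.5, 49.2 and 58.1 CPM in knockouts and 48.6, 22.3, 42.0 and 27.5 CPM in controls. Knockout 1, control 2 and control 4 were low and the other 5 libraries high, so the main division ran across the groups. Its fold change on the log2 scale was 0.41 (SE 0.27, edgeR adjusted p = 0.342), and 0.25 to 0.61 over the 20 alternatives. The nearest profiles were those of Arhgef11, Mfsd8, a gene for a lysosomal membrane protein, and Tstd2, at distances of 0.113, 0.123 and 0.124. Arhgef11 had 21.5, 43.1, 43.7 and 47.9 CPM in knockouts and 39.7, 20.7, 40.1 and 22.4 CPM in controls, low in the same 3 libraries.

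Among the proteins known to bind these annexins, S100a6, a partner of Anxa11, had 124, 83.3, 63.9 and 67.6 CPM in knockouts and 259, 245, 140.4 and 157 CPM in controls (2.37-fold lower in the knockout, edgeR adjusted p = 0.0139). Pdcd6, which encodes the calcium sensor ALG-2 that binds Anxa7 and Anxa11, had 72.8 to 94.2 CPM in knockouts and 107 to 117 CPM in controls (log2 fold change -0.39, SE 0.11, adjusted p = 0.0408), and its call was lost in 11 of the 20 alternatives. S100a4, at 5.86 ± 2.50 CPM in knockouts and 9.97 ± 5.25 CPM in controls, did not pass (log2 fold change -0.77, adjusted p = 0.233). Over the list of 10 S100 partners and annexin binding proteins 4 were called lower and 0 higher, where 6.28% and 6.45% of all genes were. The list had a median log2 fold change of -0.56. The 4 became 2 without knockout 4, where S100a6 and Pdcd6 lost their calls, and without control 1 and knockout 3 together. Without control 1, Pla2g4a, which encodes a cytosolic phospholipase and is named after its values were seen, was called higher (0.73, edgeR adjusted p = 0.0392).

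Anxa5, the annexin used as a probe for dying cells, gave no detectable difference. It had 298, 222, 229 and 260.3 CPM in knockouts and 267, 309, 230.5 and 258 CPM in controls, with the groups intermingled. The log2 fold change was -0.08 (SE 0.14, 95% interval -0.38 to 0.23, edgeR adjusted p = 0.750). The interval holds changes of up to 0.38 on the log2 scale in the lower direction. The ratio of Anxa2 to Anxa5 RNA per length was 1.21, 1.05, 0.966 and 0.927 in knockouts and 3.59, 2.84, 3.92 and 3.19 in controls, without overlap. This ratio of the most abundant annexins carries the difference in Anxa2 given above and is no separate result.

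Anxa6, an annexin of endosomes and cholesterol transport with a duplicated core, averaged higher in knockouts than in controls, short of the threshold. It had 190.4, 158, 132 and 173 CPM in knockouts and 125, 136, 119 and 125 CPM in controls, and knockout 3 lay below control 2. The means were 163 ± 24.9 CPM in knockouts and 126 ± 6.98 CPM in controls, 0.37 apart on the log2 scale (SE 0.13, edgeR adjusted p = 0.0815). Without knockout 3 it was 0.46 and passed (adjusted p = 0.0490), and over the 20 alternatives the adjusted p ran from 0.0429 to 0.190.

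**Figure D4:**
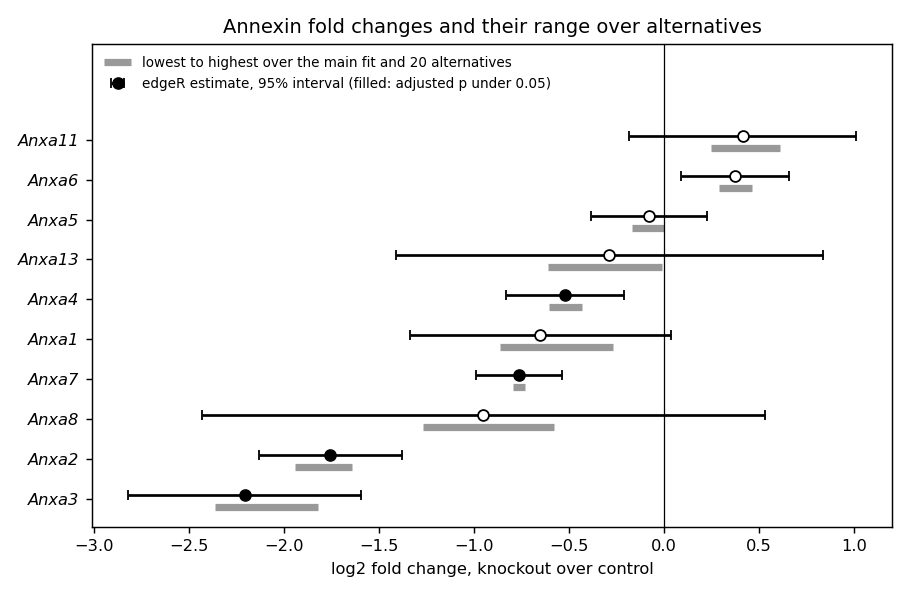
Points give the edgeR log2 fold change, knockout over control, of each annexin with its 95% interval, filled where the adjusted p is under 0.05, and grey bars give the range over the same fit and 20 alternatives. Anxa3 and Anxa2 lie lowest at -2.21 and -1.76, Anxa7 has the narrowest interval, and Anxa8 and Anxa13 have the widest.

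Anxa8 and Anxa13 were the rare members. Anxa8, an annexin of stratified and urothelial epithelium, had 8, 125, 86 and 124 counts in knockouts 1 to 4 and 285, 178, 164 and 38 counts in controls 1 to 4, or 0.288 to 3.67 CPM in knockouts and 1.23 to 8.01 CPM in controls. Each group held 1 library far below its others, knockout 1 and control 4. On the log2 scale the groups were -0.95 apart (SE 0.67, edgeR adjusted p = 0.382), which ran from -1.27 without control 4 to -0.58 without knockout 1. Its SD of log2 CPM was the largest of the family, 1.63 in knockouts and 1.15 in controls.

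The profiles nearest to that of Anxa8 belonged to Foxa1, a transcription factor gene, Upk1b, a uroplakin gene of bladder-type epithelium, and Krt4, a keratin gene. The distances of 0.553, 0.576 and 0.617 are large beside those of Anxa3. Upk1b had 1.58, 14.3, 3.84 and 6.88 CPM in knockouts and 12.8, 9.07, 11.4 and 2.43 CPM in controls, and was lowest in knockout 1 and control 4. The 8 urothelial markers summed to 58.8, 120, 32.1 and 67.6 CPM in knockouts 1 to 4 and 89.9, 114, 82.3 and 26.1 CPM in controls 1 to 4. This sum was lowest in control 4 among controls, but in knockout 3 and not knockout 1 among knockouts. Of the 8 markers 0 were called in either direction and none stood at 0 in any library. The part of urothelium in the level of Anxa8 was not tested.

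Anxa13, an annexin of intestinal and kidney epithelium, had 12, 51, 59 and 26 counts in knockouts and 43, 49, 20 and 63 counts in controls. High and low libraries occurred in both groups, and the log2 fold change was -0.29 (SE 0.51, 95% interval -1.41 to 0.84, edgeR adjusted p = 0.748). At this depth no difference was detectable. Outside the member list, Anxa9 had 148 to 165 counts in knockouts and 155 to 232 counts in controls and did not pass (log2 fold change -0.28, adjusted p = 0.374), while Anxa10 had 0 to 4 counts in each group and was not tested.

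Membrane repair genes, with which annexins seal torn plasma membrane, went both ways. All 12 listed were tested, of which 3 were called lower and 2 higher, where 6.28% and 6.45% of all genes tested were. The list had a median log2 fold change of -0.38. Trim72, the repair protein MG53, had 22, 21, 19 and 23 counts in knockouts and 62, 54, 61 and 58 counts in controls (2.68-fold lower in the knockout, edgeR adjusted p = 0.0130). Pdcd6ip, which encodes the ESCRT adaptor ALIX, was 1.54-fold lower (adjusted p = 0.0198), and the third was the dysferlin gene Dysf, named after its values were seen, at -0.37 on the log2 scale (adjusted p = 0.0418). The lysosomal exocytosis sensor gene Syt7 had 8.86 to 13.5 CPM in knockouts and 4.02 to 5.00 CPM in controls, and rose 2.55-fold (adjusted p = 0.00240). The acid sphingomyelinase gene Smpd1 rose 1.69-fold (adjusted p = 0.00292). The count of lower genes depended on the libraries and the model, at 1 without knockout 2 or without control 3 and 8 with the length-trend split described below as a covariate.

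Among genes that expose phosphatidylserine or recognise it on dying cells, most did not pass. Of 15 listed 13 were tested, of which 1 was called in each direction, with a median log2 fold change of 0.08. Calls of 1 in 13 are near the shares over all genes tested, 6.28% lower and 6.45% higher. Ano6, a scramblase, had 150 to 161 CPM in knockouts and 189 to 232 CPM in controls (1.36-fold lower in the knockout, edgeR adjusted p = 0.0241), and Mertk, a receptor for engulfment, had 28.6 to 39.6 CPM in knockouts and 20.4 to 27.0 CPM in controls (1.53-fold higher, adjusted p = 0.0262). Both calls were lost without knockout 2, 3 or 4 and without control 3, and that of Mertk also without control 1. Axl, a related receptor, had a log2 fold change of 0.59 and did not pass (adjusted p = 0.0558). The protein S gene Pros1 had -0.38 and did not pass either (adjusted p = 0.0992).

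**Figure D5:**
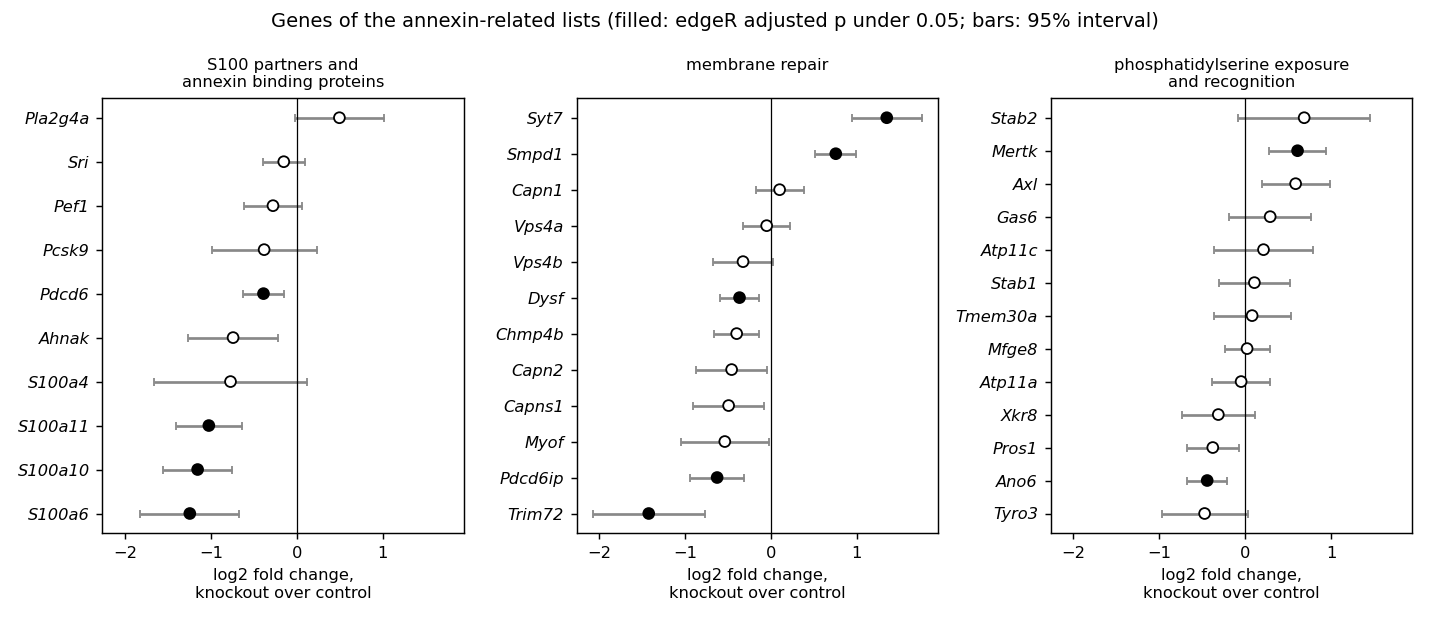
Points give edgeR log2 fold changes, knockout over control, with 95% intervals, for the tested genes of 3 lists: S100 partners and annexin binding proteins, membrane repair, and phosphatidylserine exposure and recognition. Filled points have an adjusted p under 0.05, of which 4, 3 and 1 lie below 0 in these lists and 0, 2 and 1 above it. Of all genes tested, 6.28% were called lower and 6.45% higher.

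The libraries also differed in how their counts depended on gene length, across the groups. Over the 15000 genes, the Spearman rank correlation between a library's log2 deviation from the mean and gene length was -0.30, -0.07, 0.30 and 0.28 in knockouts 1 to 4 and 0.20, -0.40, 0.12 and -0.24 in controls 1 to 4 (a description across genes, which are not independent replicates). By its sign, the libraries split into knockouts 1 and 2 with controls 2 and 4, and knockouts 3 and 4 with controls 1 and 3. Anxa11 was lowest in 3 of the 4 libraries with a negative trend. No label names a batch.

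Over all genes, 1976 were called within the libraries of positive trend and 450 within those of negative trend, so passing or not passing is not comparable between the sets. The split was made after seeing the data, within the same 8 libraries whose contrast chose the family. A difference found in both sets is therefore no replication, and the values below are a description. Within the libraries of positive trend (2 against 2) the log2 fold changes were -2.001 for Anxa2, -2.46 for Anxa3, -0.79 for Anxa7 and -0.81 for Anxa4, with edgeR adjusted p-values of 0.00605, 0.0138, 0.0205 and 0.0210. Within those of negative trend (2 against 2) they were -1.52 for Anxa2, -1.82 for Anxa3 and -0.73 for Anxa7, with adjusted p-values of 0.0226, 0.00514 and 0.0359. Anxa4 was at -0.23 there and did not pass (adjusted p = 0.470). Anxa1 was at -1.02 (adjusted p = 0.0891) in the first set and -0.15 (adjusted p = 0.847) in the second. Anxa11 was at 0.25 in the first and 0.68 in the second, Anxa6 at 0.33 and 0.42, Anxa8 at -1.04 and -0.79, and Anxa5 at -0.02 and -0.12, none past the threshold, while Anxa13 changed sign (0.47 and -0.89, adjusted p = 0.647 and 0.526). With the split as a covariate Anxa6 passed (log2 fold change 0.37, adjusted p = 0.0429) and Anxa11 did not (0.46, adjusted p = 0.0940).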

How the data were processed

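Whole-kidney RNA-seq of 8 libraries was analysed, 4 knockout and 4 control. The authors deposited whole-number counts per gene with a gene length column. Tools in the submitters' processing notes are HISAT2 2.2.1, Salmon 1.10.2, Trim Galore 0.6.2 and FastQC, with the build mm39; which made the counts, with which annotation, is not given in the sources used here. Genes were taken by symbol, since 0.0706% of 18423 known identifiers in the table belonged to the symbol beside them. Between 68.7% and 70.9% of counts from 1 to 20 were even, against 49.5% to 50.4% of those over 100, the cause of which was not tested; halving the counts was an alternative. The labelled kit does not mark strand, and GENCODE M21 places antisense genes over exons of Anxa2, Anxa4 and Anxa11 (Gm16144, Gm44036 and Anxa11os), whose reads cannot be told apart.

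Counts were tested with edgeR 4.0.16 (R 4.3.3), using filterByExpr (minimum count 10), TMM, a quasi-likelihood fit of knockout against control, and Benjamini-Hochberg adjustment over 15000 genes, called under 0.05. CPM use TMM-scaled totals, RPKM the deposited length, and log2 CPM a prior count of 2. SE come from the F statistic. Scripts were tested on simulated data. Alternatives used DESeq2 1.42.0, limma 3.58.1 voom, other scalings and filters, and fewer libraries. Members, lists and tests were chosen with earlier results of these data known. Named genes are all members, the S100 partners and Ahnak, and up to 4 genes of each pathway list and 2 of each marker list by smallest p; the nearest profiles (3 genes each) are given for the members with the highest and lowest fold change and the largest SD. Depth precision covers counting error only. Protein sequences were not analysed here, and 1 gene that the rule names is not reported here.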

Additional observations from a re-analysis of the deposited data

Results flagged for a closer look

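Of 30 groups of 4 libraries examined (the 10 annexins, S100a10, S100a11, S100a6, S100a4 and Ahnak in each genotype), 1 had a library far from the others. Anxa2 in knockout 1 stood at 287 CPM, against 176 to 192 CPM in the other 3 knockouts, a gap of 0.854 of the group's range, above Dixon's 95% critical value. Chance alone marks about 1 in 20 such groups. Without knockout 1 the log2 fold change of Anxa2 was -1.94.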

How the results depend on the processing

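Over the 20 alternatives, 4 members were called lower in some and 3 in others, the difference being Anxa4, and 0 members were called higher except for 1, Anxa6, with the length-trend split as a covariate (chosen after seeing the data) or without knockout 3; leaving out 1 library gave 0 to 1. Of 200 values of member fold changes under alternatives, 189 kept direction and side of the threshold, 8 lost the call (all Anxa4), 2 gained it (Anxa6) and 1 changed sign: Anxa5, from -0.17 to 0.000810 on leaving out 1 library. The count of changed genes, 1909, was 3009 in DESeq2, 3226 with the length-trend split, 1045 without control 1 and knockout 3 together, and 907 to 1984 on leaving out 1 library; leaving out libraries leaves fewer samples, and for the others the cause was not tested. Same-numbered libraries correlated in their deviations at -0.20, 0.04, 0.15 and -0.16, and 0 of 8 correlated best with their own number. These deviations also carry the length trends given above, so the check cannot tell whether the numbers pair the samples. A replicate block gave 865 changed genes, 3 members called lower (Anxa4 at an edgeR adjusted p of 0.0899) and 0 higher, and 0 membrane repair genes called lower. Leaving out 1 library also moved 2 lymphocyte markers across 0, Cd3d (-0.041 to 0.81) and Cd79a (-0.97 to 0.32), neither of them called. RefSeq-linked transcript lengths left the counts of separate neighbours in the order of levels at 3 in knockouts and 5 in controls (Anxa13 had no such length). Depth was lowest for Anxa8 (8 to 285 counts) and Anxa13 (12 to 63 counts).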
